A study of Mus musculus with 14 samples.

Results

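The genes described here are 6 matrix metalloproteinases (Mmp2, Mmp8, Mmp9, Mmp13, Mmp14 and Mmp19) and 4 of their inhibitors (Timp1, Timp2, Timp3 and Reck). They were chosen by gene symbol, by matching the Ensembl gene IDs of the count table to GENCODE vM21, and are 10 of the 54524 genes in that table. All 10 were measured well enough to be tested. RNA was sequenced from liver sinusoidal endothelial cells (LSECs), the fenestrated cells that line the liver's capillaries, freshly sorted from male Balb/c mice of 10 to 12 weeks by the labels (the methods give a somewhat older range). The 4 groups were healthy mice that received no injection (n = 4) and mice killed 1 day (n = 2), 3 days (n = 4) or 7 days (n = 4) after 1 intraperitoneal injection of carbon tetrachloride (CCl4), a hepatotoxin, at 0.5 µl per g of body weight in mineral oil. The paper states that 2 other day 1 samples were not included because of low RNA integrity (RIN) values. No mouse received mineral oil alone, so effects of CCl4, of the oil and of the injection cannot be told apart. All 4 groups went through the same sort, for CD32+ F4/80- cells without UV autofluorescence or propidium iodide by the labels, and without CD45 by the methods as well.

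Matrix metalloproteinases are zinc enzymes that cut collagens and other matrix proteins, and most are made as inactive proforms that other proteases open. The tissue inhibitors of metalloproteinases (TIMPs) bind the active enzymes, and RECK is a membrane-anchored inhibitor. In the injured liver these genes are known from several cell types: Mmp8 and Mmp9 are stored by neutrophils, Mmp2 and Timp1 are made by activated stellate cells, and endothelial cells carry MMP-14 on their surface, where together with TIMP-2 it activates pro-MMP-2.

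Levels are given as CPM, counts relative to the size of the library, after TMM scaling, which corrects for library composition, and a gene was called changed at a Benjamini-Hochberg adjusted p under 0.05 in edgeR's quasi-likelihood test over all 26626 genes tested. Total counts per sample ran from 46401496 to 103912264, so that 3 counts, the level taken as the floor of detection, stand for at most 0.0661 CPM. LSEC markers were present in all 14 samples. The 8 of them (Stab1, Stab2, Lyve1, Clec4g, Fcgr2b, Oit3, Gpr182, Kdr) summed to 15663 to 19038 CPM in healthy LSECs and to 9306 to 14161 CPM after CCl4. They did not all fall. From healthy mice to day 1 the mean of Lyve1 went from 387 to 3209 CPM and that of Kdr from 2216 to 677 CPM, and both were called. Stab2 had means of 1814 and 1544 CPM and was not called. Markers of other cells were present too, and values of such markers are given beside some of the genes. The day 3 libraries fell into pairs: replicates 1 and 2 had counts on 34678 and 34768 genes, against 28203 and 22986 for replicates 3 and 4, and the Pearson correlation of log2 CPM was 0.963 and 0.934 within the pairs and 0.875 to 0.928 across them. Some day 3 results are therefore also given with a pair left out, a choice made after seeing the data. The pairs were seen in the same libraries, so such values describe the split and are no separate test. In bulk RNA of sorted cells, fewer cells of a type and less RNA per cell cannot be told apart.

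Against healthy LSECs, 4 of the 10 genes were called at day 1 (Mmp8, Mmp19, Timp1 and Timp3), all higher, where 4.06% of all genes tested were called and 2.42% were called higher. The samples of 8 of the 10 genes did not overlap with the healthy samples, against 37.9% of all genes in this comparison of 2 mice with 4. At day 3, 2 of 10 were called (Mmp8 and Timp1), both higher, against 7.19% of all genes and 4.62% called higher, and 3 did not overlap, against 14.4%. At day 7, 2 of 10 were called (Mmp2 and Timp1), both higher, against 3.18% of all genes and 2.19% called higher, and 4 did not overlap, against 20.8%. Timp1 was thus called at each of the 3 time points, while edgeR called no gene of the 10 lower than in healthy LSECs at any of them. DESeq2 called Timp2 lower at day 1 and Timp3 lower at day 3. The median log2 fold change of the 10 genes was 0.98 at day 1, 1.05 at day 3 and 1.14 at day 7, with -0.03, 0.18 and 0.02 for all genes tested. The 3 comparisons share the 4 healthy mice.

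**Figure D1:**
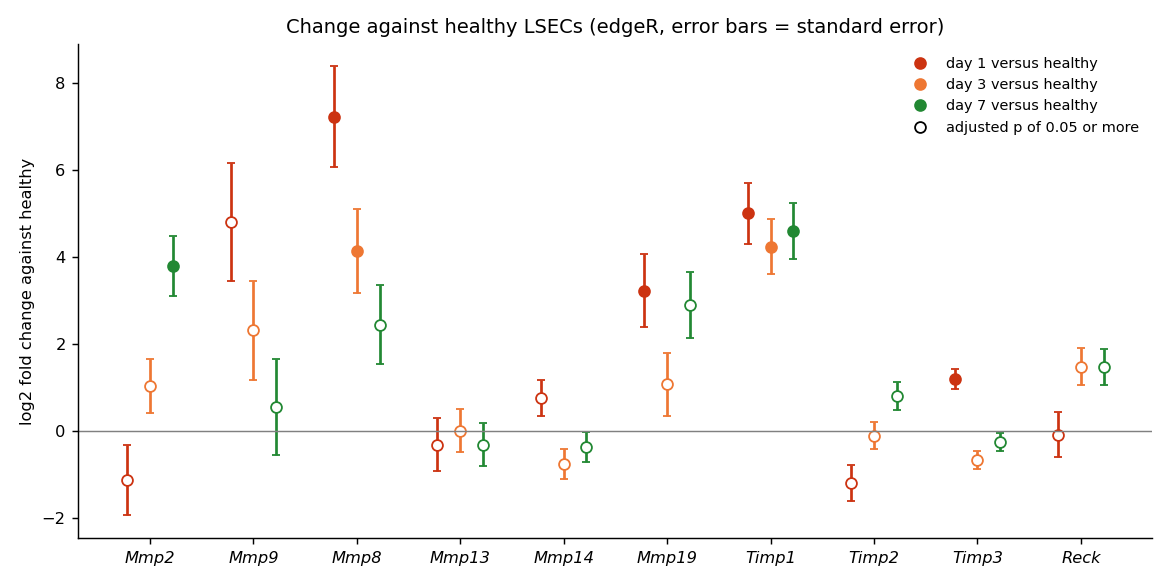
Change of the 10 genes against healthy LSECs. The y axis is the log2 fold change from edgeR, with bars of 1 standard error, for day 1 (red), day 3 (orange) and day 7 (green), and filled points are those called at an adjusted p under 0.05. Timp1 lies between 4.24 and 5.01 at the 3 time points, Mmp8 falls from 7.23 at day 1 to 2.44 at day 7, and Mmp2 goes from -1.14 to 3.79.

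Between time points, 1 of 10 genes was called from day 1 to day 3 (Timp3, lower), where 2.54% of all genes were called and 0.969% called lower, and the mice did not overlap in 8 of 10 genes, against 21.8% of all genes. From day 1 to day 7, 4 of 10 were called, with Mmp2 and Timp2 higher and Mmp8 and Timp3 lower, against 8.04% of all genes, of which 3.65% were higher and 4.40% lower. In that comparison 6 of 10 genes did not overlap, against 43.5% of all genes. Fewer calls from day 1 to day 7 were made with either day 1 mouse left out, among all genes as well as among the 10. Such a fit leaves 1 mouse at day 1. From day 3 to day 7, edgeR called 0 of 10, against 1.77% of all genes, and 1 of 10 did not overlap, against 7.91%. In that comparison 3 of the 10 had an unadjusted p under 0.05, against 18.8% of all genes, and DESeq2 called 1 (Mmp2). Mmp9, Mmp13, Mmp14 and Reck were called in none of the 6 comparisons.

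In healthy LSECs 3 genes led among the 10 described here. Levels of different genes were compared as TPM, a share of all transcripts in which counts are divided by transcript length. Timp3 was highest at 189 ± 24.0 TPM (SD, n = 4), followed by Mmp14 at 109 ± 13.8 TPM and Timp2 at 47.2 ± 10.8 TPM. The ranges of these 3 genes over the 4 healthy mice did not overlap. Mmp13 followed at 9.88 ± 5.41 TPM and Timp1 at 5.04 ± 1.66 TPM, with ranges that overlapped each other, and the other 5 genes had means of 1.05 to 1.78 TPM.

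After CCl4 this order among the chosen genes changed. At day 1, in 2 mice, Timp3 (371 ± 17.4 TPM, SD) and Mmp14 (159.9 ± 28.2 TPM) still led, but Timp1 (139 ± 24.3 TPM) and Mmp8 (134 ± 83.6 TPM) followed, with ranges that overlapped that of Mmp14. Timp2 stood sixth with a mean of 17.4 TPM. At day 3 and day 7 Timp1 held the second place, at 63.1 ± 14.6 and 93.1 ± 71.3 TPM (n = 4 each), between Timp3 (96.0 ± 55.4 and 125 ± 58.6 TPM) and Mmp14 (57.2 ± 48.6 and 62.3 ± 10.6 TPM), and the spreads of these neighbours overlapped.

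**Figure D2:**
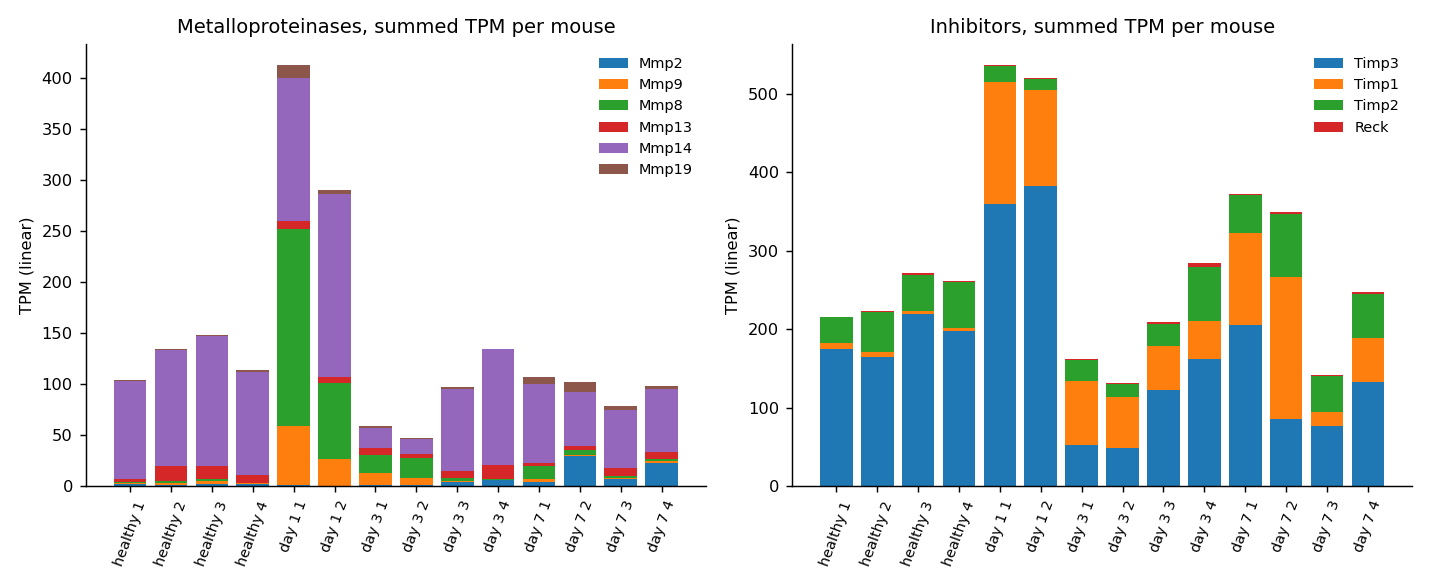
Summed TPM of the 6 metalloproteinases (left) and the 4 inhibitors (right), 1 bar per mouse, on linear axes from 0, with colours for genes. Mmp14 (purple, left) makes up 84.9 to 93.0% of the metalloproteinase bar in healthy mice and 33.9 and 61.9% at day 1, while Timp1 (orange, right) is 1.37 to 3.38% of the summed TIMPs in healthy mice and 12.1 to 52.0% at day 7.

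The make-up of both sums shifted more than their ratio. Mmp14 gave 84.9 to 93.0% of the summed metalloproteinase TPM in the 4 healthy mice, and Mmp8 and Mmp9 together 1.48 to 3.05%. At day 1 the share of Mmp8 and Mmp9 was 60.8 and 34.8%, and at day 3 it was 50.4 and 55.6% in replicates 1 and 2 but 4.18 and 0.801% in replicates 3 and 4. Mmp2 gave 1.07 to 1.67% in healthy mice and 3.30 to 29.2% at day 7. Of the summed TPM of Timp1, Timp2 and Timp3, Timp3 gave 74.5 to 81.4% in healthy mice and 67.0 and 73.8% at day 1. Its share was 32.4 to 58.9% in the day 3 mice and 24.9 to 55.3% in the day 7 mice. The ratio of the TIMP sum to the metalloproteinase sum was 1.65 to 2.28 in healthy mice and 1.30 and 1.79 in the day 1 mice. The day 3 mice had ratios of 2.07 to 2.76 and the day 7 mice of 1.79 to 3.47. The ranges of this ratio overlapped between healthy mice and each time point. The ratio counts transcripts and says nothing of protein or of enzyme activity. The metalloproteinase sum holds only the genes chosen here and leaves out others, such as Mmp12. In healthy mice Mmp12 was at 5.07 to 14.9 CPM, against 244 to 338 CPM for Mmp14. At day 7 it was at 84.6 to 344 CPM, against 169 to 258 CPM for Mmp14. The shares and the ratio therefore describe the chosen genes and not all metalloproteinases of the samples.

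Upstream sequences are shown for the genes that rose most at day 1, Timp1 and Mmp8, and for Mmp13, a collagenase whose mean hardly moved. They are the 250 bases before the RefSeq start of each gene, written on the gene's strand and 5′ to 3′, in the mouse build GRCm38.p6. Timp1 is at chrX:20869916-20870165, Mmp8 at chr9:7558179-7558428 and Mmp13 at chr9:7272264-7272513, all on the plus strand. Capitals mark matches, on either strand, to any of these motifs. The AP-1 site was searched as TGANTCA. The TATA box was searched as TATAAA. The GC box was searched as GGGCGG. No match shown overlaps another.
Timp1: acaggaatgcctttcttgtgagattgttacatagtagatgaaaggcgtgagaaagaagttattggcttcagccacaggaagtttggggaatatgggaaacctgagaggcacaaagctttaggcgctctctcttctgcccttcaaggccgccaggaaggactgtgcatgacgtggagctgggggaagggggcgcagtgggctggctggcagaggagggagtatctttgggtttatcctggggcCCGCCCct
Mmp8: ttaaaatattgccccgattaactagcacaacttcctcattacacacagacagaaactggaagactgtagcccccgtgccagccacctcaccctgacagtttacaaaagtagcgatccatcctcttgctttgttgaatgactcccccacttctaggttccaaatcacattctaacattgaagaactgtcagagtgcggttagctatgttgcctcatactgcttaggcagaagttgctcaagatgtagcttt
Mmp13: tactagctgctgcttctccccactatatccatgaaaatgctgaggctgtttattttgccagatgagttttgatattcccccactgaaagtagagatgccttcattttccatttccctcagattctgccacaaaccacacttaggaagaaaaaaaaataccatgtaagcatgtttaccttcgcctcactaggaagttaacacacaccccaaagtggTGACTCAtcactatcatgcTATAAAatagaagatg
The Mmp13 window holds an AP-1 match whose first base lies 35 bases before the start and a TATA match whose first base lies 16 bases before it, the Timp1 window holds a GC box whose first base lies 8 bases before the start, and these letters are not in the Mmp8 window. Of all 32851 RefSeq windows of this length, 6.75% hold the AP-1 letters, 12.4% the TATA letters and 32.7% the GC box letters. Windows were found for 7 of the 10 genes (not for Mmp2, Mmp9 and Mmp19). Mmp14, Timp2, Timp3 and Reck hold a GC box and neither of the other motifs. A match describes letters and not a bound site.

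Timp1, which inhibits most secreted metalloproteinases, showed the clearest change. It lies on chromosome X (20870166 to 20874735, plus strand, GENCODE vM21 on GRCm38), inside the gene Syn1 of the opposite strand, with no exon bases in common. In healthy LSECs it was at 2.93, 2.17, 1.47 and 1.41 CPM in replicates 1 to 4. At day 1 it was at 75.3 and 53.5 CPM, at day 3 at 56.3, 52.5, 25.2 and 17.1 CPM, and at day 7 at 38.6, 111, 11.6 and 32.4 CPM. Every injured mouse lay above every healthy mouse. The log2 fold change was 5.01 at day 1 (SE 0.70, adjusted p = 0.00128), 4.24 at day 3 (SE 0.63, adjusted p = 0.00271) and 4.6 at day 7 (SE 0.65, adjusted p = 0.00481). No single mouse left out ended these calls, and the log2 fold change then stayed between 3.79 and 5.26. The 3 time points overlapped, with adjusted p of 0.633 (day 3 against day 1), 0.761 (day 7 against day 1) and 0.779 (day 7 against day 3). Timp1 was also called at day 3 without replicates 1 and 2 and without replicates 3 and 4.

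**Figure D3:**
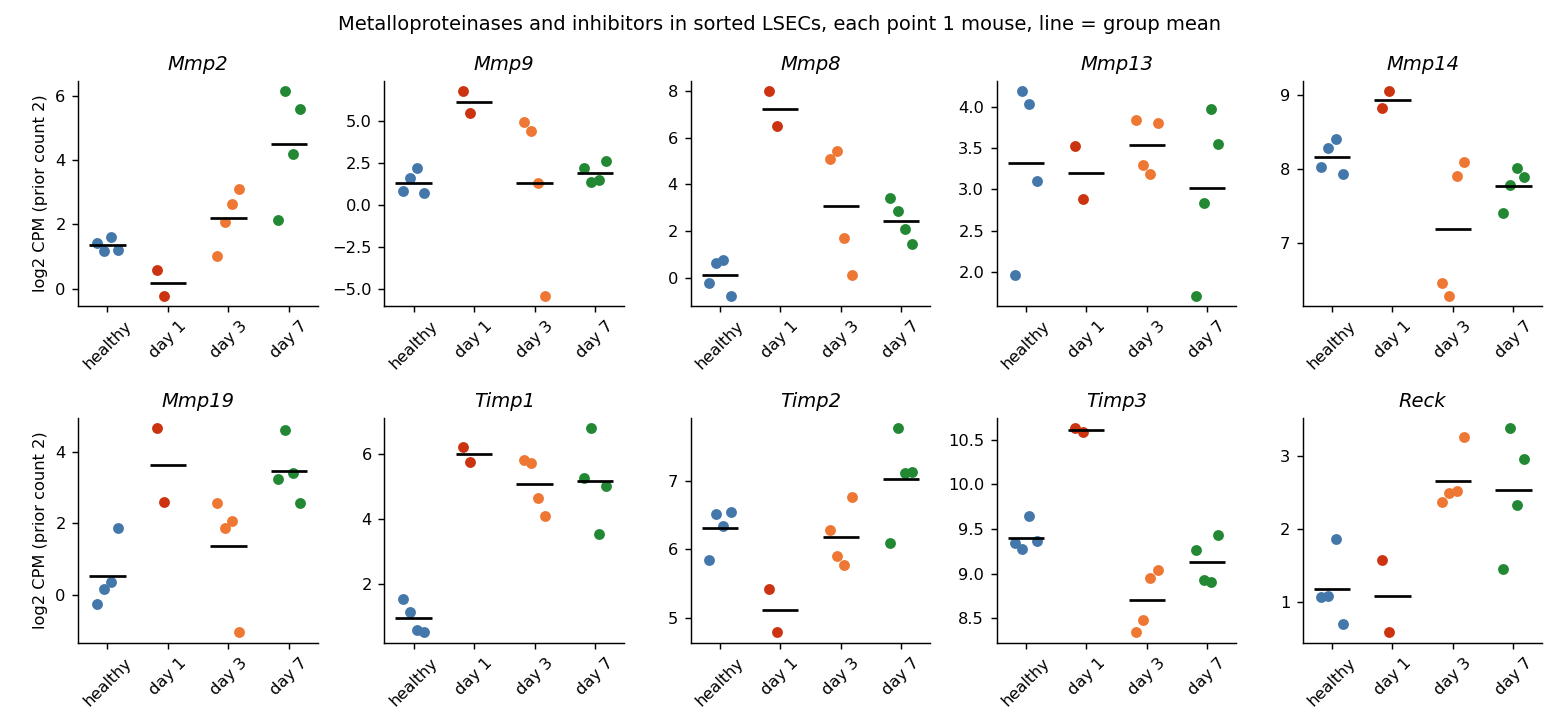
Level of the 10 genes in each of the 14 mice. The y axis is log2 CPM (prior count 2, a log scale), 1 panel per gene with its own axis, points are mice and lines are group means. Timp1 lies above the healthy mice in all 10 injured mice, Timp3 is highest in the 2 day 1 mice, and the day 3 mice of Mmp8, Mmp9 and Mmp14 lie in pairs.

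Timp3, a TIMP that binds to the matrix and also inhibits ADAM proteases, had the highest mean TPM among the 10 genes and rose only at day 1. Healthy LSECs held 647, 619, 797 and 658 CPM, the 2 day 1 mice 1582 and 1542 CPM, the day 3 mice 325, 358, 495 and 528 CPM, and the day 7 mice 615, 489, 479 and 688 CPM. Both day 1 mice lay above and all 4 day 3 mice lay below the healthy range, which the day 7 mice overlapped. The rise at day 1 had a log2 fold change of 1.2 (SE 0.23, adjusted p = 0.0101). It was no longer called without day 1 replicate 1 (1.15, adjusted p = 0.249), day 1 replicate 2 (1.19, adjusted p = 0.115) or healthy replicate 4 (1.16, adjusted p = 0.0516). At day 3 Timp3 had a log2 fold change of -0.67 against healthy LSECs (SE 0.20, adjusted p = 0.0547), and was called without day 3 replicate 3 (-0.89, adjusted p = 0.0433) or replicate 4 (-0.87, adjusted p = 0.0206) and by DESeq2 (adjusted p = 0.0148). From day 1 it fell by 1.87 on the log2 scale to day 3 (SE 0.23, adjusted p = 0.00213) and by 1.46 to day 7 (SE 0.23, adjusted p = 0.00269). The fall to day 3 was called with each mouse left out in turn, while that to day 7 was lost without day 1 replicate 1 (adjusted p = 0.0888) or replicate 2 (adjusted p = 0.0588). Of the exon length of Timp3, 21.3% is shared with Syn3 on the opposite strand, and use of strand in counting was not stated. Syn3 had at most 7.34 CPM in any sample, which does not show how reads from the shared part were counted. The sum of endothelial markers moved in part with it. The 6 of them (Pecam1, Cdh5 and others) summed to 2194 to 2535 CPM in healthy mice, 2081 and 2570 CPM at day 1, 1254 to 1675 CPM at day 3 and 1098 to 1585 CPM at day 7. Single markers went both ways against healthy mice. At day 1 only Cdh5 was called, higher (log2 fold change 1.06). At day 3 Tek (-1.24) and Egfl7 (-1.05) were called lower and Vwf (2.36) higher. The part of endothelial RNA in the fall of Timp3 was not tested.

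Timp2, which inhibits metalloproteinases and also serves the activation of pro-MMP-2, went the other way. It was at 57.8, 91.8, 81.3 and 92.9 CPM in healthy LSECs, 43.0 and 27.5 CPM at day 1, 78.0, 60.1, 54.4 and 108 CPM at day 3 and 68.2, 218, 139 and 139.9 CPM at day 7. Both day 1 mice lay below every other mouse. Against healthy LSECs no time point was called in edgeR, with log2 fold changes of -1.2 (SE 0.41, adjusted p = 0.133), -0.11 (SE 0.32, adjusted p = 0.884) and 0.80 (SE 0.32, adjusted p = 0.175) at days 1, 3 and 7. The fall at day 1 passed the threshold in DESeq2 (-1.22, adjusted p = 0.0475). It also passed in edgeR with only the 2 groups compared (-1.24, adjusted p = 0.0463). From day 1 to day 7 Timp2 rose by 2.00 on the log2 scale (SE 0.43, adjusted p = 0.0149), a call that ended without day 1 replicate 1 (2.41, adjusted p = 0.127) or day 1 replicate 2 (1.75, adjusted p = 0.19).

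Reck had the lowest mean TPM of the 4 inhibitors in healthy LSECs, at 1.1 ± 0.394 TPM (SD, n = 4). Healthy LSECs held 2.08, 2.09, 3.61 and 1.60 CPM, day 1 mice 2.94 and 1.47 CPM, day 3 mice 5.15, 5.63, 5.77 and 9.54 CPM and day 7 mice 2.70, 10.5, 5.0 and 7.76 CPM. All 4 day 3 mice and 3 of 4 day 7 mice lay above the healthy range. The log2 fold changes of 1.48 at day 3 (SE 0.42, adjusted p = 0.052) and 1.47 at day 7 (SE 0.42, adjusted p = 0.0752) did not pass the threshold in edgeR, and passed it in DESeq2 (adjusted p = 0.00791 and 0.00976). The day 7 value was called in edgeR without day 7 replicate 1 (1.73, adjusted p = 0.0271). At day 1 the log2 fold change was -0.087 (SE 0.51, adjusted p = 0.973).

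Among the proteases, Mmp8, the neutrophil collagenase, rose most. It lies on chromosome 9 (7558456 to 7568485). Healthy LSECs held 0.838, 1.53, 1.64 and 0.561 CPM (49 to 158 counts), and the day 1 mice 254 and 89.8 CPM. At day 3 the mice held 33.6, 42.8, 3.24 and 1.05 CPM, and at day 7 they held 10.8, 7.19, 4.17 and 2.73 CPM. Both day 1 mice and all 4 day 7 mice lay above the healthy range, while day 3 replicate 4 lay within it. The log2 fold change was 7.23 at day 1 (SE 1.16, adjusted p = 0.00357) and 4.14 at day 3 (SE 0.97, adjusted p = 0.0223). At day 7 it was 2.44 (SE 0.91, adjusted p = 0.149). The day 1 call held with each mouse left out in turn. The day 3 call was lost without any one of the 4 healthy mice or of day 3 replicates 1 and 2 (adjusted p = 0.0515 to 0.0716), and without day 3 replicates 1 and 2 together the log2 fold change was 0.89 (adjusted p = 0.404). From day 1 to day 7 Mmp8 fell by 4.79 on the log2 scale (SE 1.06, adjusted p = 0.0165), a call that was lost without day 1 replicate 1 (-3.79, adjusted p = 0.195) or day 7 replicate 3 (-4.56, adjusted p = 0.0527).

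Mmp9, the gelatinase that neutrophils store, had a similar course. The healthy mice held 1.76, 3.13, 4.74 and 1.61 CPM, the day 1 mice 112 and 45.5 CPM, the day 3 mice 31.4, 21.8 and 2.49 CPM with 0 counts in replicate 4, and the day 7 mice 4.71, 2.66, 2.76 and 6.33 CPM. A count of 0 in day 3 replicate 4 allows up to 0.0318 CPM. Both day 1 mice lay above the healthy range, and the day 3 mice lay on both sides of it. The log2 fold change of 4.80 at day 1 (SE 1.36, adjusted p = 0.0683) did not pass the threshold in edgeR and passed it in DESeq2 (adjusted p = 0.0195). At day 3 it was 2.31 (SE 1.15, adjusted p = 0.262), and without replicate 4, the mouse at 0 counts, 2.6 (adjusted p = 0.0263). Without replicates 1 and 2 the day 3 value turned to -1.2 (adjusted p = 0.537), and without replicates 3 and 4 it was 3.11 (adjusted p = 0.00186). Both values describe the split between the pairs and are no separate tests of day 3. At day 7 the log2 fold change was 0.55 (SE 1.11, adjusted p = 0.819).

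The sum of neutrophil and monocyte markers moved with both genes, though not every marker did. The 14 of them (S100a8, S100a9, Cxcr2, Csf3r and others) summed to 31.6 to 204 CPM in healthy mice, 6854 and 2880.2 CPM at day 1, 4119.5, 2230.4, 113 and 89.9 CPM in day 3 replicates 1 to 4, and 201 to 309 CPM at day 7. Of these 14 genes, 5 were called higher at day 1, 2 at day 3 and 0 at day 7, against 2.42%, 4.62% and 2.19% of all genes tested. In day 1 replicate 1, S100a8 (2139.8 CPM) and S100a9 (3692 CPM) made up most of the sum. Mpo, Elane, Camp and Ltf overlapped with the healthy mice at day 1, with log2 fold changes of 0.18, 0.94, -0.7 and 0.46. None of the 14 was at 0 in all mice. S100a8, an abundant calcium-binding protein of neutrophils, was at 992 and 589.9 CPM in day 3 replicates 1 and 2 and at 12.8 and 3.21 CPM in replicates 3 and 4, the same split as in Mmp8 and Mmp9. Ptprc, which encodes CD45, was detected in all 14 mice, at 36.9 to 109.6 CPM in healthy mice, 177 and 128 CPM at day 1, 269.6, 182, 63.9 and 46.7 CPM at day 3 and 134 to 154 CPM at day 7. Mmp9 counts per count of Cxcr2, a neutrophil chemokine receptor, were 1.11 to 1.59 in healthy mice, 0.787 and 0.649 at day 1, 0.669, 0.876, 1.25 and 0 in day 3 replicates 1 to 4, and 0.815 to 1.12 at day 7. This ratio lay below the healthy range in both day 1 mice. Mmp8 counts per Mmp9 count were 0.346 to 0.489 in healthy mice, 2.27 and 1.97 at day 1, 1.07, 1.97 and 1.3 in day 3 replicates 1 to 3, and 2.29, 2.71, 1.51 and 0.431 in day 7 replicates 1 to 4. All of these injured mice except day 7 replicate 4 lay above the healthy range. The part of these cells in the changes of Mmp8 and Mmp9 was not tested.

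**Figure D4:**
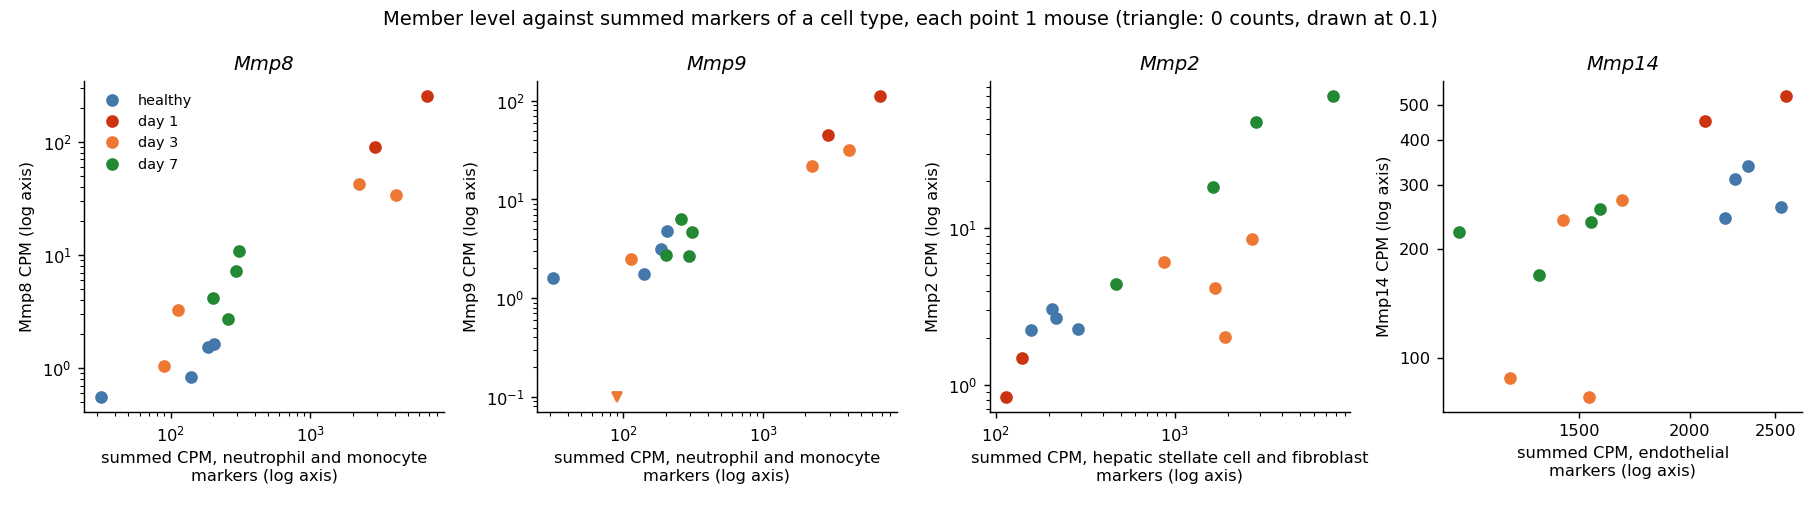
Level of Mmp8 and Mmp9 against the summed markers of neutrophils and monocytes, of Mmp2 against those of stellate cells and fibroblasts, and of Mmp14 against endothelial markers. Each point is 1 mouse, both axes are CPM on log scales, and the triangle is the mouse with 0 counts of Mmp9. In the Mmp8 and Mmp9 panels the day 3 mice split, with replicates 1 and 2 at marker sums of 4119.5 and 2230.4 CPM near the day 1 mice, and replicates 3 and 4 at 113 and 89.9 CPM.

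Mmp2, the gelatinase that MMP-14 activates, rose late. It lies on chromosome 8 (92827291 to 92853420). Healthy LSECs held 2.65, 2.22, 3.05 and 2.27 CPM, the day 1 mice 1.47 and 0.837 CPM, the day 3 mice 2.02, 4.15, 6.11 and 8.55 CPM and the day 7 mice 4.38, 70.4, 18.3 and 47.7 CPM. Both day 1 mice lay below and all 4 day 7 mice above the healthy range, with a wide spread among the day 7 mice. Against healthy LSECs the log2 fold change was -1.14 at day 1 (SE 0.81, adjusted p = 0.527), 1.03 at day 3 (SE 0.63, adjusted p = 0.374) and 3.79 at day 7 (SE 0.69, adjusted p = 0.0134). The day 7 call was lost by a small margin without healthy replicate 1 (3.81, adjusted p = 0.0556) or healthy replicate 2 (3.73, adjusted p = 0.0511). From day 1 to day 7 Mmp2 rose by 4.93 on the log2 scale (SE 1.00, adjusted p = 0.0109), which was not called without day 1 replicate 1 (5.44, adjusted p = 0.149) or replicate 2 (4.62, adjusted p = 0.145).

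Markers of stellate cells and fibroblasts moved with Mmp2 at day 7. The 14 of them (Lrat, Pdgfrb, Dcn, Col1a1 and others) summed to 158 to 288 CPM in healthy mice, 140.3 and 115 CPM at day 1, 874 to 2713 CPM at day 3, and 472, 7700.1, 1635 and 2844 CPM in day 7 replicates 1 to 4. The day 7 mice had the same order in Mmp2 and in this sum, with replicate 2 highest and replicate 1 lowest. Of the 14 markers, 0 were called higher at day 1, 12 at day 3 and 11 at day 7, against 2.42%, 4.62% and 2.19% of all genes tested. None of the 14 markers was at 0 in all mice. At day 3, when most of these markers were called, Mmp2 was at 2.02 to 8.55 CPM. At day 1, when Timp1 was at 75.3 and 53.5 CPM, their sum lay below the healthy range, but single markers went both ways. Dcn was at 71.4 to 74.3 CPM against 101 to 199.8 CPM in healthy mice. Acta2 was at 11.2 to 18.1 CPM against 5.28 to 9.64 CPM. Mmp2 counts per count of Col1a1, the main fibrillar collagen chain, were 0.691 to 1.25 in healthy mice and 0.634 and 0.724 in the day 1 mice. They were 0.0193 to 0.0861 in the day 3 mice and 0.058 to 0.205 in the day 7 mice. Per count of Lrat, an enzyme of retinoid storage in stellate cells, they were 0.244 to 1.45 in healthy mice, 0.535 and 0.317 in the day 1 mice, 0.0343 to 0.247 in the day 3 mice and 0.433 to 0.801 in the day 7 mice. The day 7 mice thus lay below the healthy range for Col1a1 and within it for Lrat. The part of stellate cells and fibroblasts in the rise of Mmp2, and in the values of Timp1, Timp2 and Reck at any time point, was not tested.

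Mmp19, a metalloproteinase that cuts basement membrane proteins, was low in healthy LSECs at 0.808, 1.09, 1.25 and 3.59 CPM. It was at 25.3 and 6.01 CPM at day 1, 5.91, 3.64, 4.12 and 0.456 CPM at day 3 and 9.28, 24.4, 10.5 and 5.92 CPM at day 7. All day 1 and day 7 mice lay above the healthy range, and the day 3 mice lay on both sides. The rise at day 1, with a log2 fold change of 3.22 (SE 0.84, adjusted p = 0.0493), lay at the threshold. It was lost with any one mouse left out other than healthy replicate 4, at 2.98, 3.06 and 3.10 without healthy replicates 1 to 3 (adjusted p = 0.107 to 0.114), 1.78 without day 1 replicate 1 (adjusted p = 0.771) and 3.86 without day 1 replicate 2 (adjusted p = 0.0576). At day 7 the log2 fold change was 2.89 (SE 0.76, adjusted p = 0.0553), which was called without healthy replicate 4 (3.60, adjusted p = 0.028). Tmem198b on the opposite strand shares 22.3% of the exon length of Mmp19 and was at 12.1 to 29.9 CPM, so counts of Mmp19 are uncertain if strand was not used. The antisense gene Gm47093 shares a further part of its exons. In healthy replicate 4, the highest of the healthy mice in Mmp19, 8 hepatocyte markers summed to 8029.8 CPM, against 184 to 343 CPM in the other healthy mice, and their part was not tested.

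Mmp14, the membrane-type protease on endothelial cells, had the highest mean TPM of the 6 proteases in each of the 4 groups. Healthy mice held 261, 313, 338 and 244 CPM, day 1 mice 452 and 529 CPM, day 3 mice 88.0, 78.1, 240.5 and 273 CPM, and day 7 mice 169, 222, 258 and 237 CPM. Both day 1 mice lay above the healthy range, and day 3 replicates 1 and 2 lay far below it. The log2 fold changes of 0.76 at day 1 (SE 0.42, adjusted p = 0.38), -0.77 at day 3 (SE 0.35, adjusted p = 0.216) and -0.38 at day 7 (SE 0.35, adjusted p = 0.562) were not called. Without day 3 replicates 3 and 4, the day 3 value was -1.92 (adjusted p = 0.000343). These replicates held more Mmp14 than replicates 1 and 2, so this value describes the split and is no separate test of day 3. The 6 endothelial markers summed to 1254 and 1537 CPM in day 3 replicates 1 and 2 and to 1439 and 1675 CPM in replicates 3 and 4. Single endothelial genes split in both directions. Pecam1, a junction protein, was at 179 and 241 CPM in replicates 1 and 2 and at 348 and 485 CPM in replicates 3 and 4, Kdr, the main VEGF receptor, at 821 and 848 CPM and at 1493 and 2031 CPM, and Emcn, a sialomucin, at 197 and 208 CPM and at 123 and 63.6 CPM. Mmp14 counts per Kdr count were 0.107 and 0.0921 in replicates 1 and 2, 0.161 and 0.134 in replicates 3 and 4, and 0.116 to 0.14 in healthy mice, and at day 1 they were 0.764 and 0.696. Per Pecam1 count they were 0.492 and 0.324, 0.692 and 0.562, 0.588 to 0.825, and 1.23 and 1.33 in the same order. The part of the share of endothelial RNA in the values of Mmp14 was not tested.

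Mmp13, the interstitial collagenase of rodents, kept the same range throughout. It was at 3.87, 18.3, 16.3 and 8.54 CPM in healthy mice, 11.5 and 7.32 CPM at day 1, 14.3, 9.83, 9.13 and 13.9 CPM at day 3 and 3.24, 7.15, 15.7 and 11.7 CPM at day 7. All 4 groups overlapped. The log2 fold changes against healthy LSECs were -0.32 (SE 0.61, adjusted p = 0.871), 0.006 (SE 0.49, adjusted p = 0.997) and -0.32 (SE 0.49, adjusted p = 0.756), and its mean was 9.40 to 11.8 CPM in all groups. Changes smaller than the spread of the healthy mice would not have been detectable. In healthy replicates 1 to 4 a set of 10 Kupffer cell and macrophage markers summed to 177, 1188, 1345 and 967 CPM. Replicate 1 was lowest in this sum and in Mmp13. In day 3 replicates 1 to 4 the sum was 1805, 1626, 742 and 935 CPM, in another order than Mmp13. The part of these cells in the level of Mmp13 was not tested.

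The genes' patterns over the 14 mice were set beside each other as Pearson correlations of log2 CPM, a description over samples that share groups and libraries. The closest pairs were Mmp14 with Timp3 (r = 0.85), Mmp2 with Timp2 (r = 0.84), and Mmp2 with Reck and Mmp8 with Mmp9 (r = 0.79 each). The least alike were Timp3 with Reck (r = -0.54) and Timp3 with Timp2 (r = -0.53). Among all protein-coding genes tested, the pattern of Timp1 was most like those of Olr1 (r = 0.963), Vcan (r = 0.961) and Svil (r = 0.961). Mmp9 was most like Retnlg (r = 0.987), Cxcr2 (r = 0.974) and Tmem156 (r = 0.969), and Mmp8 most like Slc7a11 (r = 0.965), Ccr1 (r = 0.964) and Csf3r (r = 0.960). Retnlg, Cxcr2 and Csf3r are on the list of neutrophil and monocyte markers. Mmp2 was most like Mfap4 (r = 0.972), Frmd6 (r = 0.953) and Mapk8ip1 (r = 0.940). For Mmp14 the closest were Tmem65 (r = 0.974), Map4k3 (r = 0.953) and Ube3c (r = 0.948), and for Timp3 Akap2 (r = 0.947), Clic4 (r = 0.934) and Pls3 (r = 0.933). Reck was most like BC034090 (r = 0.958), Clstn1 (r = 0.956) and Ninl (r = 0.954). Weaker best matches were found for Timp2 (Esr1, r = 0.928), Mmp19 (Nkain3, r = 0.912) and Mmp13 (Dmpk, r = 0.883).

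Of 18 other metalloproteinase and TIMP genes, 15 were tested, and 1 was called higher than in healthy LSECs at day 1, 3 at day 3 and 2 at day 7, with 0 called lower at any time point. Of all genes tested, 2.42%, 4.62% and 2.19% were called higher at these times. The median log2 fold change of the 15 genes was 0.3, 1.19 and 1.64, against -0.03, 0.18 and 0.02 for all genes tested. Mmp12, the macrophage elastase, was called at all 3 time points. It was at 5.07, 14.9, 12.5 and 6.88 CPM in healthy mice, 175 and 29.8 CPM at day 1, 72.6, 62.5, 48.3 and 46.8 CPM at day 3 and 92.0, 162, 344 and 84.6 CPM at day 7. Every injured mouse lay above the healthy range, with log2 fold changes of 3.38 (SE 0.64, adjusted p = 0.00958), 2.55 (SE 0.57, adjusted p = 0.0177) and 4.12 (SE 0.61, adjusted p = 0.00546) at days 1, 3 and 7. Of 10 Kupffer cell and macrophage markers, 1, 3 and 3 were called higher at these times and none lower. These were Gpnmb at day 1, and Cd68, Gpnmb and Trem2 at days 3 and 7. The 10 markers summed to 177 to 1345 CPM in healthy mice, 711 and 1491 CPM at day 1, 742 to 1805 CPM at day 3 and 1308 to 2283 CPM at day 7. They did not move together: from healthy mice to day 7 the mean of Gpnmb went from 0.867 to 738 CPM. That of Clec4f, a Kupffer cell marker, went from 391 to 205 CPM. The part of macrophages in the level of Mmp12 was not tested.

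Mmp23, a metalloproteinase anchored by its N-terminus, was at 1.43 to 2.23 CPM in healthy mice, 0.395 and 0.495 CPM at day 1, 7.00 to 12.3 CPM at day 3 and 4.34 to 46 CPM at day 7. It rose by 2.40 at day 3 (SE 0.54, adjusted p = 0.0182) and by 3.52 at day 7 (SE 0.57, adjusted p = 0.00779) on the log2 scale. In day 7 replicates 1 to 4 it was at 4.34, 46, 11.1 and 16.3 CPM, the same order as in the sum of the stellate cell and fibroblast markers (472, 7700.1, 1635 and 2844 CPM), which also lay below the healthy range at day 1, and their part was not tested. Mmp27 rose at day 3, from 0.665 ± 0.297 CPM in healthy mice to 3.03 ± 1.35 CPM (SD, n = 4 each, log2 fold change 2.19, SE 0.52, adjusted p = 0.0225).

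**Figure D5:**
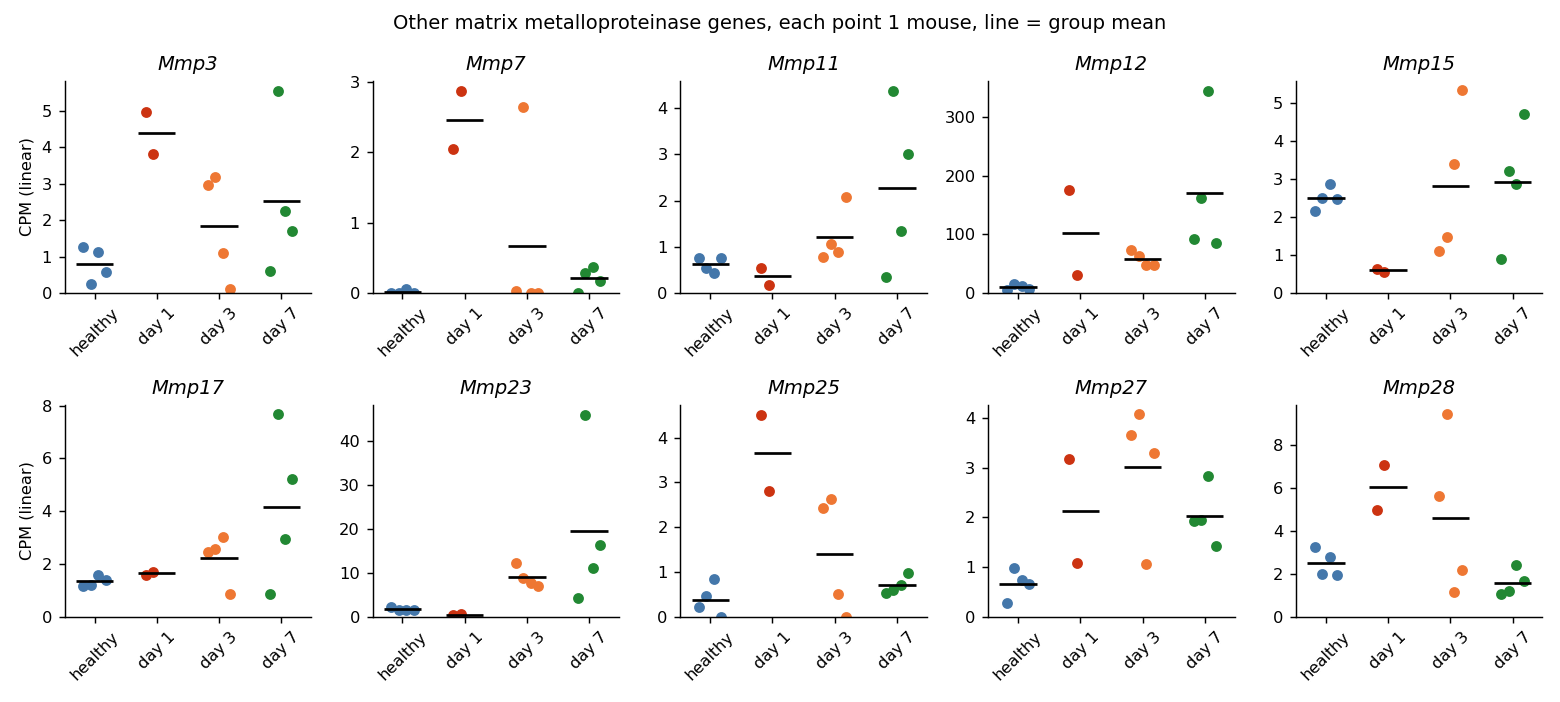
Level of the 10 other metalloproteinase genes with a mean of at least 1 CPM in some group, on linear CPM axes that differ between panels, with points for mice and lines for group means. All 10 injured mice lie above the healthy mice in the Mmp12 panel, at 29.8 to 344 CPM against 5.07 to 14.9 CPM, and all day 3 and day 7 mice do in the Mmp23 panel.

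Genes that activate, carry or bind the family were described by a list of 20, all tested. Of these, 5 were called higher at day 1, 9 at day 3 and 6 at day 7, against 2.42%, 4.62% and 2.19% of all genes tested. None of the 20 was called lower than in healthy LSECs. The list was chosen with earlier results of these data known, so these counts are a description. At day 1 the largest changes were in Lcn2, a lipocalin of neutrophils that binds MMP-9 (log2 fold change 6.09, SE 1.00, adjusted p = 0.00401), in Cd63, a tetraspanin to which TIMP-1 binds (3.43, SE 0.40, adjusted p = 0.000414), and in Plaur, the urokinase receptor (3.41, SE 0.29, adjusted p = 4.45e-05). Plaur went from 28.3 to 64.5 CPM in healthy mice to 562 and 489 CPM at day 1. Among the largest at day 3 were Lcn2 (4.6, SE 0.89, adjusted p = 0.00881) and A2m, a protease trap at 1.08 ± 0.854 CPM (SD, n = 4) whose mice overlapped with healthy ones (3.24, SE 0.76, adjusted p = 0.022). Among the largest at day 7 were Lcn2 (3.57, SE 0.85, adjusted p = 0.0397) and, at 2.68, both Cd63 (SE 0.36, adjusted p = 0.00481) and Lrp1, the receptor that takes up proteases bound to inhibitors (SE 0.55, adjusted p = 0.0207). Cd63 lay above the healthy range, at 153 CPM or more against 59.6 CPM or less, in all 10 injured mice. Lcn2 had the day 3 split of Mmp8 and Mmp9 in part, at 83.4, 179, 27.0 and 11.2 CPM in replicates 1 to 4.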

How the data were processed

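RNA sequencing of sorted LSECs was analysed for 14 mice in 4 groups, taken from the sample labels. Each sample is a different mouse. Reads were checked and trimmed by the authors (FastQC, AfterQC), aligned to GRCm38.p6 (STAR) and assembled (StringTie), and the deposited values are raw whole-number counts per Ensembl gene. Tool versions, the annotation release and the use of strand are not given in the sources used here. Labels and methods give the same dose but different age ranges.

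Of 54524 gene IDs, 54495 were found in GENCODE vM21, which supplied symbols, positions, overlaps and exon lengths for TPM. Promoter windows came from RefSeq. With filterByExpr (at least 10 counts per gene, 15 in total) 26626 genes remained. TMM factors and the quasi-likelihood test of edgeR 4.0.16 (R 4.3.3) were used in 1 model of 4 group means, with Benjamini-Hochberg adjustment over all genes tested and a threshold of 0.05. Standard errors were derived from the log2 fold change and its F statistic. A count under 3 was treated as no detection. This floor allows for counting error only, since reads carry no molecular identifiers. The edgeR step was tested on simulated counts with 200 genes shifted by 2 (log2). Against healthy LSECs it recovered 28.5% at day 1, 43.0% at day 3 and 41.5% at day 7, with 0, 1 and 4 false calls among 25424, 25367 and 25349 genes.

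The 10 genes and the lists were chosen with earlier results of these data known. Their shares of called genes, set beside those of all genes, are therefore a description and no test of enrichment. The text names all 10 genes, in the 2 family lists the 3 largest changes among those called against healthy LSECs, and the 3 genes most correlated with each of the 10 (the first of them for Timp2, Mmp13 and Mmp19). Some results that this rule would name are not reported here. Cell type markers are named as examples. Alternatives were DESeq2 1.42.0, RLE size factors, library size only, no filter on low counts, the replicate number as a block, only the 2 groups compared, and each mouse left out in turn. Leaving out the pairs of day 3 libraries was added after seeing the data.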

Additional observations from a re-analysis of the deposited data

Results flagged for a closer look

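In 2 of the 30 groups of 4 mice tested, 1 mouse stood apart by Dixon's test at 95%, and chance alone flags about 1 in 20 groups. Healthy replicate 4 had 3.59 CPM of Mmp19, where the other healthy mice had 0.808 to 1.25 CPM, and day 3 replicate 4 had 9.54 CPM of Reck, where the others had 5.15 to 5.77 CPM.

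The change from healthy LSECs differed between time points for 4 genes in edgeR. In this model the difference is the same as the direct comparison of the time points. The values are therefore those already given above and add no further test. Timp3 had a log2 difference of -1.87 from day 1 to day 3 (adjusted p = 0.00213) and of -1.46 from day 1 to day 7 (adjusted p = 0.00269). Mmp2 had a difference of 4.93 (adjusted p = 0.0109), Mmp8 of -4.79 (adjusted p = 0.0165) and Timp2 of 2.00 (adjusted p = 0.0149), all from day 1 to day 7. Day 1 had 2 mice.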

How the results depend on the processing

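Of 35 results on single genes, 27 kept their direction and side of the threshold with DESeq2, 33 with RLE size factors, 34 with library size only, 32 with no filter on low counts and 26 with only the 2 groups compared. In the order day 1, day 3 and day 7 against healthy, day 3 against day 1, day 7 against day 1 and day 7 against day 3, edgeR called 1080, 1915, 846, 676, 2142 and 472 genes. DESeq2 called 2762, 3627, 2619, 2309, 4462 and 1671, and fits of only the 2 groups called 2327, 1108, 3156, 189, 4465 and 1. For day 7 against day 3, 287 genes were called with library size only and 157 with no filter. With library size only, 75.1% of calls were higher at day 3 (64.2% with TMM), 86.8% at day 7 (68.8% with TMM) and 56.0% from day 1 to day 7 (45.3% with TMM). Of the 10 genes, DESeq2 called 4 at day 3, 5 at day 7, 5 from day 1 to day 3 and 1 from day 3 to day 7, and fits of 2 groups called 1, 4, 0 and 0 there.

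The replicate numbers did not pair the mice, which are different animals: over 18 pairs of the same number, deviations from the group means correlated at -0.232 to 0.0962. With the replicate block, 594 genes were called at day 1, 435 at day 7, 311 from day 1 to day 3, 1084 from day 1 to day 7 and 244 from day 3 to day 7. Under the block, 1 of the 10 genes was called at day 3, 2 from day 1 to day 3 and 2 from day 1 to day 7, and at day 1 Mmp13 turned to 0.095 and Reck to 0.11.

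Without day 3 replicates 1 and 2, 1923 genes were called from day 1 to day 3, and of the 10 genes 1 was called at day 3 and 4 from day 1 to day 3. Mmp9 then turned to -1.2 and Mmp13 to -0.058 at day 3. Without replicates 3 and 4, 6245 genes were called at day 3, 2784 from day 1 to day 3 and 6133 from day 3 to day 7, and of the 10 genes 5, 2 and 5, with Mmp13 at -0.095. The day 3 value of Mmp13 also turned to -0.008 with DESeq2, -0.0047 with RLE, -0.2 with no filter and -0.084 with only the 2 groups. The causes were not tested.

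With each mouse left out in turn, 164 to 810, 946 to 3314, 193 to 1509, 49 to 915, 146 to 1950 and 26 to 1652 genes were called in the 6 comparisons, and 2 to 3, 1 to 4, 1 to 3, 1 to 2, 0 to 5 and 0 to 2 of the 10. Reck ranged from -0.7 to 0.31 at day 1, and at day 3 Mmp13 from -0.29 to 0.3 and Timp2 from -0.44 to 0.011. Leaving out a day 1 mouse leaves 1, which is then assumed to vary like the other groups. Calls at day 1 rest on 2 mice, use of strand is unknown for the overlapping genes Mmp19 and Timp3, and the split of the day 3 libraries is not explained by the labels.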
